A study of Rattus norvegicus with 9 samples.

Results

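The 10 genes described here make and fill the insulin secretory granule, and they were taken by symbol from a list of prohormone processing and granule genes: Pcsk1, Pcsk2, Cpe, Scg5, Chga, Chgb, Scg2, Ptprn, Ptprn2 and Slc30a8. They were chosen with earlier results of these data known, and each matched 1 of the 20645 genes in the expression table. All 10 were among the 12958 genes with a mean FPKM (fragment numbers corrected for gene length and library depth) of at least 1 over the 9 libraries, which were the genes tested.

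RNA-seq was performed on INS-1E cells, an insulin-secreting rat insulinoma line. Over 24 h the BSA group received fatty acid-free BSA, the PA group received palmitic acid (PA), and the PA + C3G group received PA together with cyanidin-3-O-glucoside (C3G), an anthocyanin. The sample labels name these treatments without doses, and the methods give 0.5 mM PA and 50 µM C3G. Each group had 3 libraries, labelled as replicates, and the methods state for experiments in general at least 3 biological replicates. Separate cultures are not named for these libraries, so p-values measure the spread between them.

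Insulin is made as proinsulin, which is packed into granules budding from the trans-Golgi network and is cut there at pairs of basic residues. The prohormone convertases PC1/3 (Pcsk1) and PC2 (Pcsk2) make the cuts, carboxypeptidase E (Cpe) trims the basic residues that remain, and 7B2 (Scg5) is a helper protein that PC2 needs to mature. The granins Chga, Chgb and Scg2 are acidic proteins that aggregate in the granule core, IA-2 (Ptprn) and phogrin (Ptprn2) span its membrane, and the transporter ZnT8 (Slc30a8) loads it with the zinc that insulin crystals hold.

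PA moved these genes in opposite directions. Pcsk1 fell most, and Chga, Ptprn2 and Slc30a8 were modestly lower. Chgb, Scg2, Cpe, Ptprn and Scg5 were higher, and Pcsk2 was not called. With C3G added to PA, Pcsk1, Chgb, Chga, Pcsk2, Ptprn2 and Scg5 were higher than with PA alone, and no gene of the 10 was called lower.

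The promoters of 4 genes that rose with PA are shown because they hold the letters TGACG, the shared part of sites that factors of the CREB and ATF families are known to bind. Each line gives the 250 bases before the start of the gene, 5′ to 3′ on the strand of the gene, from RefSeq on build GRCr8. Capitals mark the motifs searched, on either strand, so CGTCA in capitals is TGACG on the other strand.
Scg2, chr9:88256867-88257116, minus strand: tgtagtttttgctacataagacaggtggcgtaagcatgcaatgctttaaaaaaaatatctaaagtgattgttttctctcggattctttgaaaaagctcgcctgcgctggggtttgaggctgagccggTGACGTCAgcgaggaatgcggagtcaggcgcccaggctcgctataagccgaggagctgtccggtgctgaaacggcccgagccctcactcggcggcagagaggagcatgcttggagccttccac
Cpe, chr16:29796457-29796706, plus strand: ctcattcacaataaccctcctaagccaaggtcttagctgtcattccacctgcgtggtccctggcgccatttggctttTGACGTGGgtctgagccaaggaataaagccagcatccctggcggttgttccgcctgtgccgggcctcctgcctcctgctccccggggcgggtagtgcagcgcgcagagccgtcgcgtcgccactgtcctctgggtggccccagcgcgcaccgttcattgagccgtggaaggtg
Ptprn, chr9:84204824-84205073, minus strand: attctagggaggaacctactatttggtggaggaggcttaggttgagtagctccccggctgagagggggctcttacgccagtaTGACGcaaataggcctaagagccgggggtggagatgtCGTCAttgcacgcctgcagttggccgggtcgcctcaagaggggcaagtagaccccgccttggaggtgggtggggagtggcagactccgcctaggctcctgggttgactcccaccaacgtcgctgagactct
Scg5, chr3:121042796-121043045, minus strand: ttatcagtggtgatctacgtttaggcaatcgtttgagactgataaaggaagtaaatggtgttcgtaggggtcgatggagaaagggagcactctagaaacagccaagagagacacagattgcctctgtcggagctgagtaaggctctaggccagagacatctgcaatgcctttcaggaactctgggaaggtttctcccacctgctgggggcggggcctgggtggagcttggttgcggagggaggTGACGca
The search covered 300 bases, from 250 before to 50 after the start, and RefSeq promoters were matched for 7 of the 10 genes. Those not matched were Pcsk1, Chga and Slc30a8, all lower with PA. Of the genes lowered by PA, only Ptprn2 could thus be searched. TGACG or its complement was found in 5 of these 7 (Cpe, Pcsk2, Ptprn, Scg2 and Scg5), against 21.2% of 33469 promoters of this length. That background was not matched to the 7 for GC content, given below, so the shares are descriptive and enrichment was not tested. In Scg2 it begins 123 bases before the start, inside the full palindrome TGACGTCA, which 1.83% of all promoters hold. In Cpe it begins 173 bases before the start and extends to TGACGTGG, held by 0.595% of all promoters. Both longer motifs contain TGACG, so these matches overlap. Ptprn holds a match 168 and another 131 bases before the start, and Scg5 holds one 7 bases before the start and a further one on the other strand just after it. The windows of Chgb, which also rose with PA, and of Ptprn2 hold none of these letters, and that of Pcsk2, which PA did not change past the test, holds 1 match 57 bases before the start. TTGCATCA was found in none of the 7 and in 0.795% of all promoters. A match describes letters and not a bound factor. Promoter GC content was between 50.0% (Scg2) and 73.3% (Pcsk2), beside a median of 51.7% over all promoters.

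Library totals ran from 45559993 to 66730721 deposited estimated counts, and the lowest count of any of the 10 genes in a library was 1711, for Pcsk1. Low counts gathered at multiples of 4, with 2.44 times as many gene values at 4 as the mean of those at 3 and 5, so the counts were also tested after division by 4. Pearson's r of log2(FPKM + 1) across genes, which are not independent replicates, was 0.981 to 0.985 between libraries of a group and 0.943 to 0.977 between groups. All 11 beta cell markers had a mean of at least 1 FPKM, with summed levels of 45084 to 45809 FPKM under BSA, 18845 to 19486 under PA and 41702 to 47547 under PA + C3G. Ins1 and Ins2 made up most of these sums, and the other markers did not share 1 direction. From BSA to PA the mean level was higher, for example, for Abcc8 (114 and 151 FPKM), Kcnj11 (163 and 175) and Nkx6-1 (50.0 and 52.1), and lower for Slc2a2 (509.7 and 103), Mafa (381 and 212), Pdx1 (254 and 163), Iapp (3339 and 2489) and Neurod1 (149.9 and 143). The acinar, ductal, endothelial and immune lists had no marker at 1 FPKM, and the stromal list had only Pdgfra (2.08 to 3.53 FPKM summed over the list). Not all listed markers were in the table, which held 4 of 7 acinar, 2 of 3 ductal, 1 of 3 endothelial, 4 of 4 immune and 3 of 4 stromal genes. Of the other islet hormones, 2 of 4 listed were in the table, Gcg and Ghrl, with summed levels of 9.55 to 31.9, 2.68 to 7.01 and 5.37 to 23.1 FPKM in the BSA, PA and PA + C3G groups. Their part in the results was not tested. In bulk RNA, fewer cells of a type and less RNA per cell cannot be told apart.

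Summed over the 10 genes, FPKM was 8688 ± 340 (SD, n = 3) under BSA, 10994 ± 355 under PA and 15688 ± 810 under PA + C3G, or 1.62%, 2.13% and 2.94% of all FPKM. Chga and Chgb made up most of this sum in every library. With BSA the order of the levels was Chga, Chgb, Slc30a8, Cpe, Scg5, Pcsk2, Scg2, Ptprn, Ptprn2 and Pcsk1, and the libraries of neighbours in this order did not overlap. With PA, and likewise with PA + C3G, Chgb stood above Chga, Cpe above Slc30a8 and Scg2 above Pcsk2, the rest of the order being unchanged. In both of these groups Scg5 overlapped with Scg2 and Scg2 with Pcsk2, while all other neighbours were apart. Pcsk1 was lowest in all 3 groups, with the mean of the next gene, Ptprn2, 5.41-fold above it with BSA, 15.1-fold with PA and 9.86-fold with PA + C3G.

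**Figure D1:**
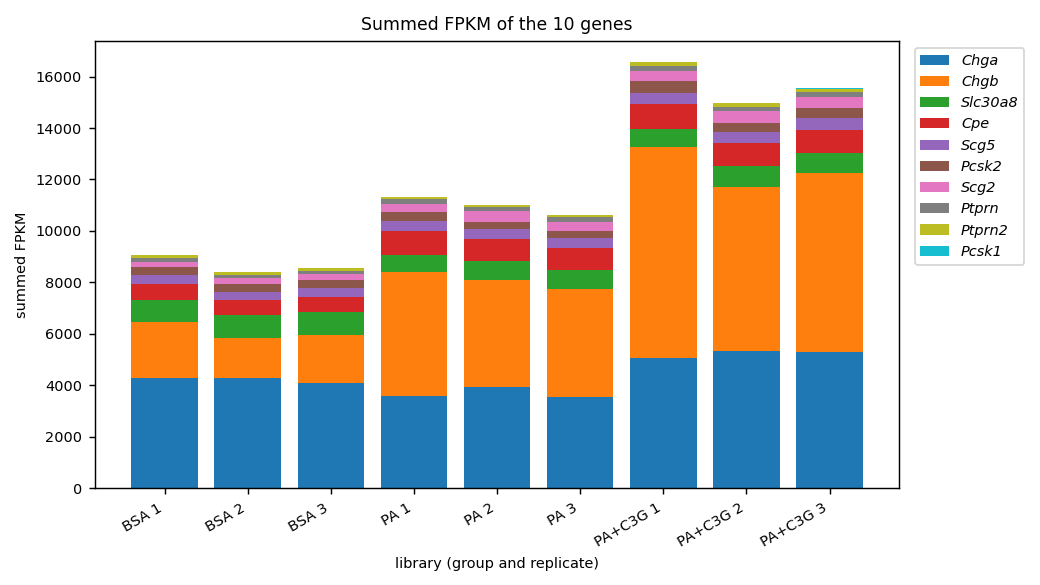
Summed FPKM of the 10 genes (vertical axis) in each of the 9 libraries (horizontal axis), with 1 coloured segment per gene. The 3 PA + C3G libraries stand highest, at 14965 to 16564, the PA libraries lie between 10627 and 11336 and the BSA libraries between 8420 and 9071, and the Chgb segment widens from group to group.

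To see which of these genes PA altered at the mRNA level, the PA group was first compared with the BSA group by edgeR's quasi-likelihood test. Calls were made at an adjusted p-value under 0.05. They comprised 5 genes with a higher and 4 with a lower level, and 1 gene was not called. Of all 12958 tested genes 51.0% were called (25.8% higher and 25.2% lower), so calls were common in this comparison. The median log2 fold change was 0.10 over the 10 genes and 0.00 over all tested genes. Past a 2-fold change stood Pcsk1 and Chgb, and 7.56% of all genes did so at an unadjusted p-value under 0.05.

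The effect of C3G was then read from the PA + C3G group against the PA group, which shares the PA libraries with the comparison above. Here 6 genes were higher, 0 lower and 4 not called, while 21.2% of all tested genes were called (11.1% higher and 10.2% lower). All 10 fold changes were above 0, as were those of 6458 of the 12958 tested genes. The median over the 10 genes was 0.33 on the log2 scale, against −0.00 over all tested genes. When libraries were rescaled to equal FPKM sums this median was 0.24, and that of all tested genes was −0.09. No gene of the 10 passed a 2-fold change, as 1.13% of all genes did.

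Against the BSA group, the PA + C3G group had 8 of the 10 genes higher and 2 lower, with 36.9% of all tested genes called (19.0% higher and 17.9% lower). The median log2 fold change was 0.43, and 0.01 over all tested genes. Chgb and Scg2 were past a 2-fold change, as were 4.63% of all genes. The fold changes of each gene follow, ordered by its role.

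**Figure D2:**
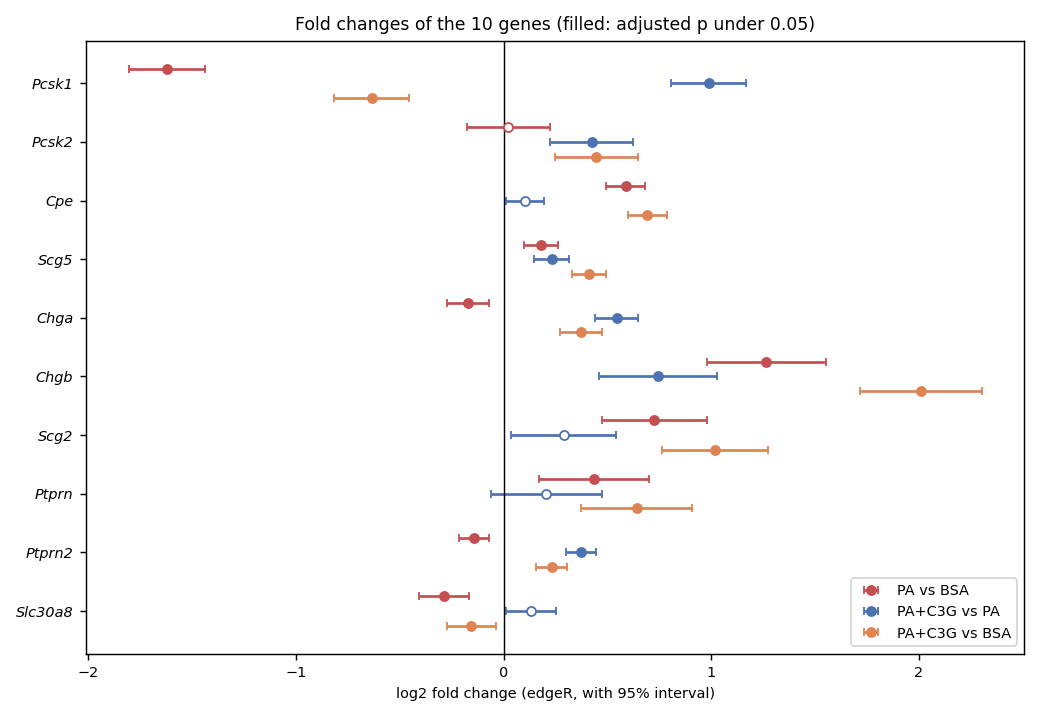
Log2 fold change (horizontal axis) of the 10 genes (vertical axis) in the 3 comparisons from edgeR's quasi-likelihood fit, with 95% confidence intervals as bars. Filled points are called at an adjusted p-value under 0.05; all points for PA + C3G against PA lie right of 0, and Pcsk1 (−1.62 with PA) and Chgb (2.01 with PA + C3G against BSA) lie farthest from it.

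Among the convertases, Pcsk1 (ENSRNOG00000011107, chromosome 2, 91450162 to 91497091, minus strand; build not given in the sources used here) encodes PC1/3, which makes the first cut in proinsulin. Its level was 18.5, 21.8 and 20.3 FPKM in the BSA libraries, 6.51, 6.69 and 6.16 in the PA libraries and 13.3, 11.2 and 13.0 in the PA + C3G libraries. The 3 groups did not overlap, and the PA + C3G libraries lay between the others. Group means were 20.2 ± 1.66, 6.45 ± 0.267 and 12.5 ± 1.15 FPKM (SD, n = 3). By edgeR's quasi-likelihood test Pcsk1 was 3.08-fold lower with PA than with BSA (log2 fold change −1.62 ± 0.08 SE, adjusted p = 2.83e-07). It was 1.98-fold higher with PA + C3G than with PA (0.99 ± 0.08 SE, adjusted p = 0.000121) and still 1.55-fold below BSA (−0.64 ± 0.08 SE, adjusted p = 0.000196).

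Pcsk2 (ENSRNOG00000005438, chromosome 3, 137618898 to 137925605, plus strand), which encodes PC2, behaved differently. Its libraries held 329, 295 and 305 FPKM with BSA, 342, 281 and 305 with PA, and 452, 364 and 396 with PA + C3G. The BSA and PA libraries overlapped, and every PA + C3G library lay above both. With PA the log2 fold change was 0.02 (95% interval −0.18 to 0.22, adjusted p = 0.852, edgeR). Its sign was not stable, at −0.0048 with limma at either pseudocount, −0.021 without BSA replicate 2 and −0.060 without PA replicate 1. With PA + C3G it was 0.42 ± 0.09 (SE) against PA (edgeR adjusted p = 0.00945) and 0.45 ± 0.09 against BSA (edgeR adjusted p = 0.0034).

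The helper of PC2, 7B2, is encoded by Scg5 (ENSRNOG00000007542, chromosome 3, 105235050 to 105279462, minus strand). It gave 332, 346 and 351 FPKM with BSA, 389, 382 and 376 with PA, and 449, 425 and 438 with PA + C3G. Small steps separated the 3 groups without overlap, upwards at each one. Scg5 rose by 0.18 ± 0.04 (SE) on the log2 scale with PA (edgeR adjusted p = 0.00249) and by a further 0.23 ± 0.04 with C3G (edgeR adjusted p = 0.0026). This second rise depended on the scaling in size and was 0.14 when libraries were rescaled to equal FPKM sums (adjusted p = 0.0152). That rescaling lowered the PA + C3G against PA value of all 10 genes, for example to 0.33 for Pcsk2 (edgeR adjusted p = 0.0227), and 6 stayed called. Against BSA, Scg5 was 0.41 ± 0.04 higher in the PA + C3G group (edgeR adjusted p = 2.23e-05).

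Cpe (ENSRNOG00000043387, chromosome 16, 26906716 to 27014813, plus strand), the carboxypeptidase of the granule, had 612, 575 and 603 FPKM with BSA, 925, 852 and 869 with PA, and 955, 904 and 912 with PA + C3G. Both treated groups lay above every BSA library and overlapped with each other. Cpe was 1.5-fold higher with PA (log2 fold change 0.59 ± 0.04 SE, edgeR adjusted p = 2.47e-06) and 1.62-fold higher with PA + C3G (0.69 ± 0.04, edgeR adjusted p = 1.84e-06), each against BSA. Between the PA + C3G and PA groups the log2 difference was 0.10 ± 0.04 and missed the threshold (edgeR adjusted p = 0.113). Under rescaling to equal FPKM sums that difference was 0.01.

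Chga and Chgb held the largest levels of the 10 genes, and Chgb the largest rise. Chga (ENSRNOG00000052549, chromosome 6, 126434226 to 126445568, plus strand), chromogranin A, was at 4270.3, 4291 and 4078 FPKM with BSA, 3579.7, 3921 and 3534 with PA, and 5072, 5345 and 5278 with PA + C3G. PA libraries were lowest and PA + C3G libraries highest, with no overlap between groups. The log2 fold change was −0.17 ± 0.05 (SE) with PA (edgeR adjusted p = 0.0105), and with no filter on low values the adjusted p-value was 0.0514. With PA + C3G it was 0.54 ± 0.05 against PA (edgeR adjusted p = 0.000134) and 0.37 ± 0.05 against BSA (edgeR adjusted p = 0.000159).

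Chgb (ENSRNOG00000021269, chromosome 3, 125428260 to 125441594, plus strand), chromogranin B, held 2172, 1545 and 1860.1 FPKM with BSA. With PA it held 4824.5, 4153 and 4201, and with PA + C3G 8182, 6358 and 6976. Each group lay above the one before it without overlap. Means were 1859 ± 313, 4393 ± 375 and 7172 ± 927 FPKM (SD, n = 3). Chgb was 2.40-fold higher with PA than with BSA (log2 fold change 1.27 ± 0.13 SE, edgeR adjusted p = 2.65e-05), 1.68-fold higher with PA + C3G than with PA (0.74 ± 0.13, edgeR adjusted p = 0.0035), and 4.03-fold higher with PA + C3G than with BSA (2.01 ± 0.13, edgeR adjusted p = 2.86e-06). By size of change this last value ranked 65 among the 12958 tested genes.

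Scg2 (ENSRNOG00000015055, chromosome 9, 85237458 to 85243001, minus strand) encodes secretogranin II, and its promoter window above holds the palindrome. Its libraries gave 207, 236 and 221 FPKM with BSA, 314, 421 and 345 with PA, and 377, 469 and 442 with PA + C3G. The BSA libraries were lowest, whereas the PA and PA + C3G libraries overlapped. Scg2 was 1.65-fold higher with PA than with BSA (log2 fold change 0.73 ± 0.11 SE, edgeR adjusted p = 0.000472) and 2.02-fold higher with PA + C3G than with BSA (1.02 ± 0.11, edgeR adjusted p = 8.98e-05). The difference of 0.29 ± 0.11 between PA + C3G and PA missed the threshold (edgeR adjusted p = 0.1). It passed without PA replicate 2, the highest PA library for this gene, at 0.42 (adjusted p = 0.0189).

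**Figure D3:**
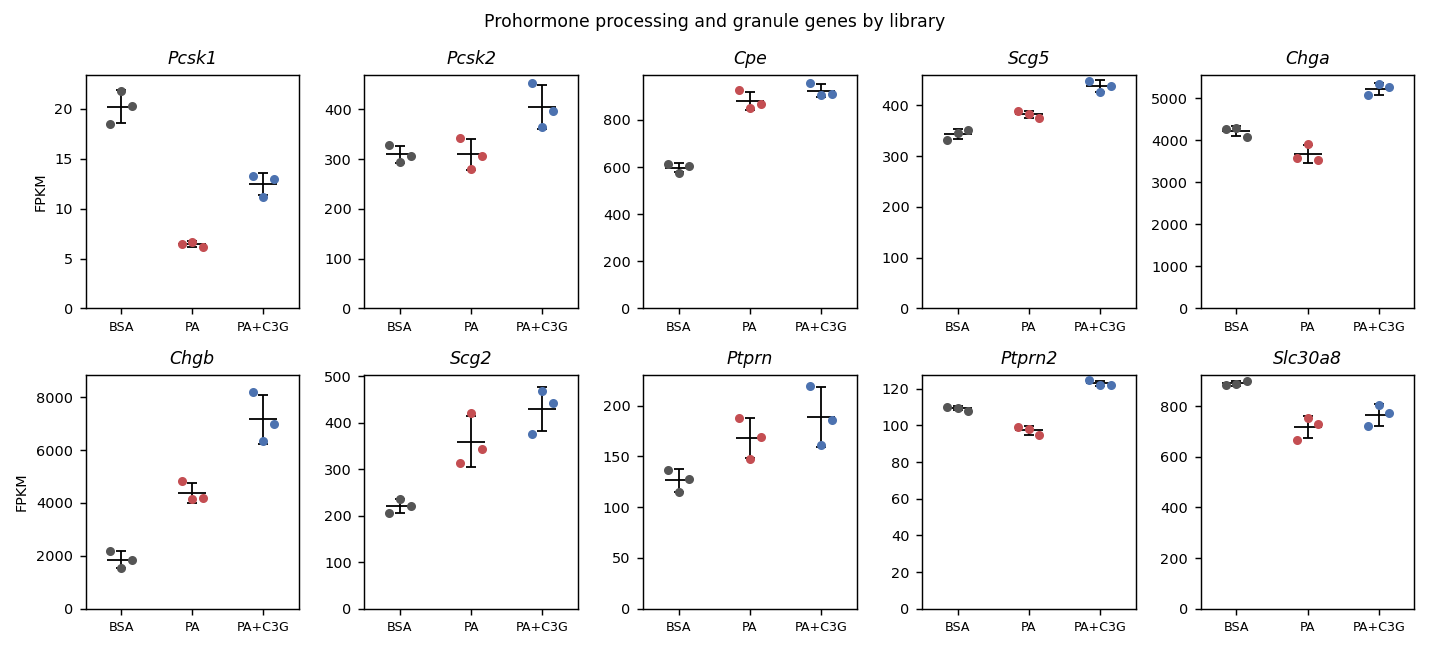
FPKM (vertical axis, from 0, with its own range for each gene) of the 10 genes in the BSA, PA and PA + C3G groups. Points are libraries (replicates 1 to 3 from left to right), with the mean and SD (n = 3) in black; Pcsk1 dips to 6.16 to 6.69 with PA, Chgb climbs from group to group, and Pcsk2 is high with PA + C3G alone.

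Of the membrane proteins, Ptprn (ENSRNOG00000019587, chromosome 9, 82446633 to 82461903, minus strand) had 137, 115 and 128 FPKM with BSA, 188, 148 and 169 with PA, and 219.8, 162 and 185 with PA + C3G. The treated groups overlapped with each other and lay above BSA. Ptprn was higher with PA (log2 fold change 0.44 ± 0.12 SE, edgeR adjusted p = 0.0121) and with PA + C3G (0.64 ± 0.12, edgeR adjusted p = 0.00232) than with BSA. Between PA + C3G and PA the value was 0.21 ± 0.12 (edgeR adjusted p = 0.258), and 0.11 under rescaling to equal FPKM sums.

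Its relative Ptprn2 (ENSRNOG00000005003, chromosome 6, 144384773 to 145133042, plus strand) had narrow groups. The levels were 110.2, 109.8 and 108 FPKM with BSA, 99.4, 98.0 and 94.8 with PA, and 125, 122 and 122 with PA + C3G. PA was lowest and PA + C3G highest, without overlap. Ptprn2 fell by 0.14 on the log2 scale with PA (SE 0.03, edgeR adjusted p = 0.00477). It was 0.37 ± 0.03 higher with PA + C3G than with PA (edgeR adjusted p = 0.00017) and 0.23 ± 0.03 higher than with BSA (edgeR adjusted p = 0.00042).

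Slc30a8 (ENSRNOG00000004747, chromosome 7, 91832988 to 91867300, plus strand), the zinc transporter, gave 883, 886 and 901 FPKM with BSA, 668, 755 and 729 with PA, and 720.1, 804 and 774 with PA + C3G. Both treated groups were below every BSA library and overlapped with each other. Slc30a8 was 1.22-fold lower with PA than with BSA (log2 fold change −0.29 ± 0.05 SE, edgeR adjusted p = 0.00138). With PA + C3G the values were 0.13 ± 0.05 against PA (edgeR adjusted p = 0.110), or 0.04 under rescaling to equal FPKM sums, and −0.15 ± 0.05 against BSA (edgeR adjusted p = 0.0442). The last call was lost without any 1 of BSA replicates 1, 2 and 3, PA replicate 3, and PA + C3G replicates 1 and 3 (adjusted p from 0.0621 to 0.119), and with no filter on low values (adjusted p = 0.0825).

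Ratios of FPKM within a library do not depend on how libraries are scaled to each other, so 8 ratios were compared in the 3 comparisons by an exact two-sided permutation test. With 3 libraries against 3 the exact test cannot go below p = 0.1, which becomes 0.133 after Benjamini-Hochberg adjustment over the 24 tests, so none could pass and overlap is given instead.

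The convertases moved apart. The ratio Pcsk1/Pcsk2 was 0.0656 ± 0.00891 (SD, n = 3) with BSA, 0.0210 ± 0.0025 with PA and 0.0309 ± 0.00175 with PA + C3G. The 3 groups did not overlap, with PC1/3 mRNA lowest relative to PC2 mRNA under PA. For PC2 and its helper, Pcsk2/Scg5 was 0.904 ± 0.0748, 0.809 ± 0.0726 and 0.923 ± 0.0777, and all groups overlapped.

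The granins changed places: Chga/Chgb was 2.31 ± 0.418 with BSA, 0.843 ± 0.101 with PA and 0.739 ± 0.111 with PA + C3G. Every BSA library was above every treated library, and the treated groups overlapped (exact permutation p = 0.4, adjusted 0.417). The ratio of the paired membrane proteins, Ptprn/Ptprn2, was 1.16 ± 0.102, 1.73 ± 0.197 and 1.54 ± 0.221 in the same order. Here BSA was below both treated groups, which again overlapped (exact permutation p = 0.3, adjusted 0.327).

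Set against the substrate, the processing genes gave another picture. The sum of Ins1 and Ins2, whose near-identical copies can exchange reads and were therefore added, took 7.38% to 7.70% of FPKM with BSA, 2.92% to 3.13% with PA and 6.94% to 7.90% with PA + C3G. The sum hides a difference between its parts as counted, a split that exchanged reads can affect. With PA against BSA the log2 fold change was −0.93 for Ins1 and −2.86 for Ins2. With PA + C3G against BSA it was 0.33 for Ins1 and −0.91 for Ins2 (edgeR adjusted p = 0.0102 and 6.86e-05). Pcsk2 relative to insulin mRNA was 0.00766 ± 0.00036 with BSA, 0.0198 ± 0.00134 with PA and 0.0103 ± 0.000412 with PA + C3G (SD, n = 3). Cpe on the same scale went from 0.0148 ± 0.00032 to 0.0565 ± 0.000999 and 0.0237 ± 0.00115. For both genes PA was highest, PA + C3G next and BSA lowest, without overlap.

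Slc30a8 relative to insulin mRNA was 0.0220 ± 0.000318, 0.0460 ± 0.00425 and 0.0198 ± 0.00255, with PA above the others and BSA and PA + C3G overlapping (exact permutation p = 0.2, adjusted 0.24). Of these genes, only Pcsk1 had a lower ratio with PA than with BSA. Its ratio to insulin mRNA was 0.0005 ± 4.62e-05 with BSA, 0.000414 ± 2.59e-05 with PA and 0.00032 ± 2.28e-05 with PA + C3G, each group below the one before it without overlap. From PA to PA + C3G the mean FPKM of Pcsk1, Pcsk2, Cpe and Slc30a8 was higher, though not called for Cpe and Slc30a8. Their ratios to insulin mRNA were all lower, as the insulin sum rose more.

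**Figure D4:**
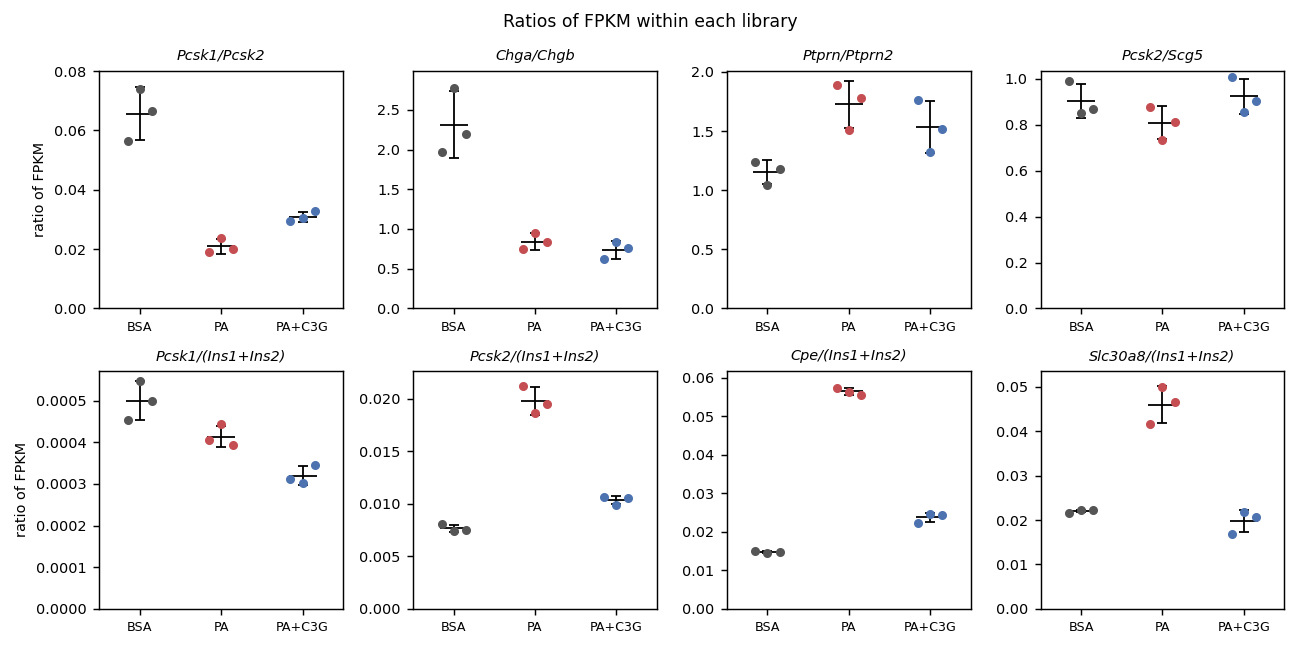
Ratios of FPKM within each library (vertical axes, from 0) in the 3 groups, for pairs of the 10 genes and for 4 of them over the sum of Ins1 and Ins2. Points are libraries (replicates 1 to 3 from left to right), with the mean and SD (n = 3) in black; Pcsk1/Pcsk2 and Chga/Chgb are highest with BSA, and Pcsk2, Cpe and Slc30a8 over insulin are highest with PA (0.0198, 0.0565 and 0.0460).

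Likeness of pattern was described by Pearson's r of log2(FPKM + 1) over the 9 libraries, without a test. These points share their libraries and the 3 group levels, so genes with like group means score high. Among the 10 genes, Chga and Ptprn2 were most alike (r = 0.965), both lowest with PA and highest with PA + C3G. Cpe and Chgb came next (r = 0.962), and Chgb was also the nearest of the 10 to Scg5 (r = 0.944) and Ptprn (r = 0.923). The nearest to Pcsk1 was Slc30a8 (r = 0.849), to Pcsk2 it was Scg5 (r = 0.788) and to Scg2 it was Cpe (r = 0.882). Pcsk1 stood opposite to Cpe (r = −0.76), and Slc30a8 opposite to Cpe (r = −0.88) and Ptprn (r = −0.83).

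Over all tested genes, the gene most like Ptprn was Pam (r = 0.994), which amidates peptides in granules, followed by Cck, a peptide hormone (r = 0.992). Chgb was most like Aplp1 (r = 0.997) and Tgoln2 (r = 0.993), the latter a membrane protein of the trans-Golgi network. For Cpe they were Rpn2 (r = 0.996), a subunit of the oligosaccharyltransferase, and Grn (r = 0.995). For Pcsk2 they were Nectin2 (r = 0.983) and Tmem163 (r = 0.981), a zinc transporter of vesicles. Pcsk1 was nearest to Atp5if1 (r = 0.994), the inhibitor of the mitochondrial ATP synthase, and to Srsf6 (r = 0.993), a splicing factor. The remaining nearest genes were Erap1 and Bsg for Scg5, P4ha2 for Chga, St18 and RT1-S3 for Scg2, Pdap1 and Gnas for Ptprn2, and Slc4a8 and Crispld1 for Slc30a8, with r between 0.978 and 0.985. RT1-S3 belongs to a multigene family whose members can share reads.

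To place the 10 genes among others of the same compartment, a list of 66 further genes for prohormone processing, granule zinc, acidification, sorting and maturation was described with the same fit. This list was chosen with earlier results of these data known, so its shares beside those of all tested genes are descriptive only. Of the 66 genes, 65 were in the table and 61 were tested, the others having a mean below 1 FPKM. With PA 29 were higher, 8 lower and 24 not called (median log2 fold change 0.21), so that 60.7% were called, beside 51.0% of all tested genes (3345 higher and 3269 lower). With PA + C3G against PA, 12 were higher, 7 lower and 42 not called (median 0.01), and with rescaling to equal FPKM sums the split was 8 higher and 15 lower (median −0.09). This scaling moved the split over all tested genes from 1436 higher and 1316 lower to 774 and 2554. Against BSA, 31 were higher and 3 lower with PA + C3G (median 0.20), and 28 and 5 under that rescaling. Over all tested genes the last split went from 2462 higher and 2321 lower to 1872 and 3073.

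Past a 2-fold change in any comparison stood 4 of the 61 genes, 2 in PA against BSA and 2 in PA + C3G against BSA. Among all tested genes, 7.56% and 4.63% did so at an unadjusted p-value under 0.05. In PA + C3G against PA it was 0 of the 61 genes, beside 1.13% of all tested genes. Nucb1, a calcium-binding Golgi protein, was at 124, 127 and 119 FPKM with BSA, 271, 268 and 268 with PA, and 235, 232 and 225 with PA + C3G. It was 2.22-fold higher with PA than with BSA (log2 fold change 1.15 ± 0.04 SE, edgeR adjusted p = 2.29e-08) and lower by a small step with PA + C3G than with PA (−0.18 ± 0.03, edgeR adjusted p = 0.006). Its relative Nucb2, the precursor of nesfatin, was at 71.6, 83.0 and 75.4 FPKM with BSA, 116, 137 and 118 with PA, and 159, 163 and 165 with PA + C3G. Here each group was above the last, with log2 steps of 0.71 ± 0.07 (edgeR adjusted p = 3.21e-05) and 0.43 ± 0.07 (edgeR adjusted p = 0.00381).

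Sytl4, the granuphilin that docks granules at the plasma membrane, fell with PA from 317, 325 and 341 FPKM to 135, 169 and 139.8, and stood at 185, 221 and 211 with PA + C3G. The 3 groups did not overlap. Its log2 fold change was −1.12 ± 0.09 (SE) with PA (edgeR adjusted p = 6.32e-06) and 0.51 ± 0.09 with PA + C3G against PA (edgeR adjusted p = 0.00435), in the directions of Pcsk1. Vgf, a granin-like granule protein, was at 110.5, 106 and 116 FPKM with BSA, 216, 187 and 188 with PA, and 262, 205 and 219.7 with PA + C3G, the treated groups overlapping. It was 1.80-fold higher with PA than with BSA (log2 fold change 0.85 ± 0.09, edgeR adjusted p = 3.97e-05) and 2.15-fold higher with PA + C3G than with BSA (1.11 ± 0.09, edgeR adjusted p = 1.33e-05). Its difference of 0.26 ± 0.09 between PA + C3G and PA missed the threshold (edgeR adjusted p = 0.0745).

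The following 5 genes of the list were chosen after their values were seen. Pcsk1n encodes proSAAS, an inhibitor of PC1/3, and was at 391, 429.9 and 388 FPKM with BSA, 319.9, 306 and 303 with PA, and 443, 459.8 and 426 with PA + C3G. It was lower with PA (log2 fold change −0.36 ± 0.05 SE, edgeR adjusted p = 0.000252) and higher with PA + C3G than with PA (0.55 ± 0.05, edgeR adjusted p = 0.000191). In these comparisons Pcsk1 took the same directions. With PA + C3G against BSA they parted, Pcsk1n being higher (0.20 ± 0.05, edgeR adjusted p = 0.0121) and Pcsk1 lower. The Pcsk1n call against BSA was lost in 5 refits. Scg3, a granin that binds Chga, and Resp18, which resembles Ptprn, were higher with PA (0.70 ± 0.05 and 0.55 ± 0.04, edgeR adjusted p = 1.34e-06 and 2.79e-06). They were again higher with PA + C3G than with PA (0.18 ± 0.04 and 0.34 ± 0.04, edgeR adjusted p = 0.0198 and 0.000569), although for Scg3 this call was lost under rescaling to equal FPKM sums (adjusted p = 0.13) and without PA replicate 1 or 3 or PA + C3G replicate 1.

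Pam was higher with PA (0.42 ± 0.12, edgeR adjusted p = 0.0169), a call lost without BSA replicate 2, BSA replicate 3 or PA replicate 1 (adjusted p from 0.0506 to 0.0677). Furin, the convertase of the constitutive pathway, did not move with PA past the test (0.00 ± 0.04, edgeR adjusted p = 0.994, from −0.03 to 0.03 over the alternatives), and its levels were 28.6 to 30.0 FPKM with BSA and 28.1 to 30.0 with PA. It was higher with PA + C3G than with PA (0.19 ± 0.04, edgeR adjusted p = 0.0103), though not under rescaling to equal FPKM sums (0.10, adjusted p = 0.108).

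**Figure D5:**
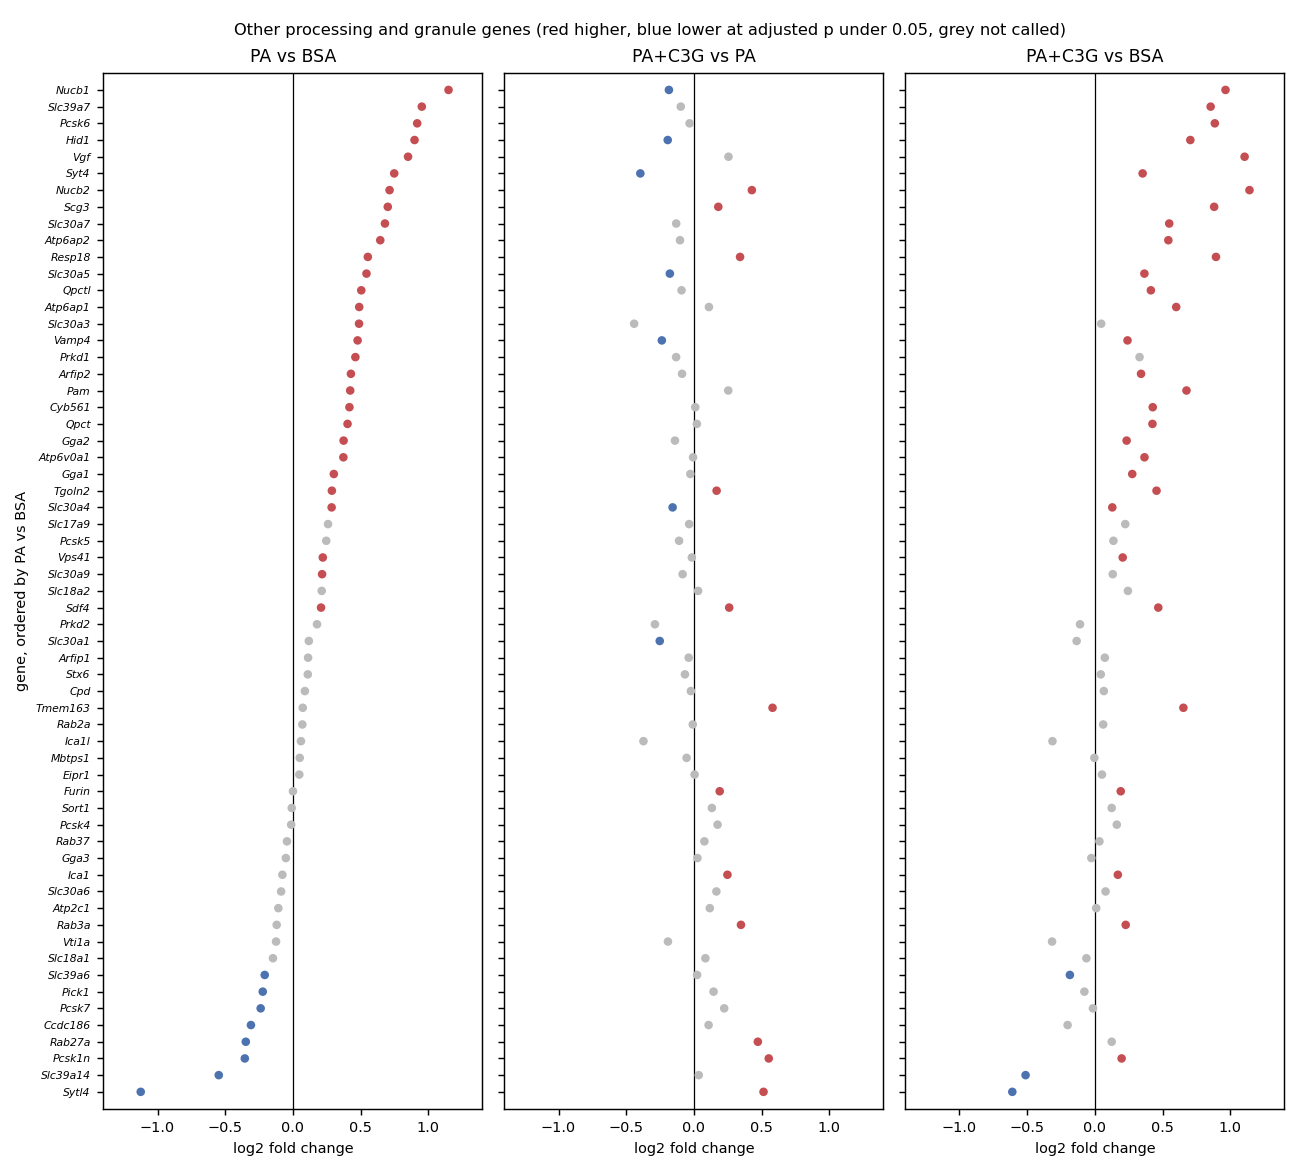
Log2 fold changes (horizontal axes) of the 61 further processing and granule genes (vertical axis, ordered by PA against BSA) in the 3 comparisons. Red marks a higher and blue a lower level in the first-named group (edgeR adjusted p-value under 0.05), and grey points are not called; red prevails in PA against BSA (29 red, 8 blue), and Nucb1 (1.15) and Sytl4 (−1.12) lie at the ends.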

How the data were processed

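Polyadenylated RNA of 9 INS-1E samples was sequenced by the authors in paired-end mode from strand-marked libraries. The submitters' processing notes name cutadapt 1.9, HISAT2 2.0.4 and StringTie 1.3.4d. The genome build and the strand setting of the counting are not given in the sources used here. The authors deposited FPKM and estimated counts, the latter whole numbers without normalization, for 20645 genes. Here the counts were tested with edgeR 4.0.16 (R 4.3.3): TMM normalization, 1 quasi-likelihood fit over the 3 groups, only genes averaging 1 FPKM or more, Benjamini-Hochberg adjustment over all 12958 tested genes, and calls at an adjusted p-value under 0.05. SE is the absolute log2 fold change over the square root of F. Levels and ratios are FPKM, and ratios were tested with scipy 1.17.1. The procedure was also run on counts simulated from dispersions estimated in these data, and no result here rests on that run. The 10 genes and the further list were chosen with earlier results of these data known. Named from the list were genes past a 2-fold change at an adjusted p-value under 0.05, plus those marked as chosen later. Also tried were median-ratio size factors, DESeq2 1.42.0, equal FPKM sums, no filter, a filter at 5 FPKM, the 2 compared groups only, a replicate block, limma 3.58.1 on log2(FPKM + 1) and log2(FPKM + 0.1), counts divided by 4, and each library left out in turn. Depth was 45559993 to 66730721 estimated counts per library. Columns with a functional annotation were not used.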

Additional observations from a re-analysis of the deposited data

How the results depend on the processing

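The fold changes of the 10 genes stayed on their side of the threshold in 294 of 300 refits under other settings and in 263 of 270 refits with 1 library left out. Their direction was the same in every refit except for Pcsk2 in PA against BSA, which was not called and changed sign in 4 refits. These exceptions are given beside the genes, except those of the replicate block. Same-numbered libraries showed little common deviation from their group means (r from −0.05 to 0.10 across genes). With the replicate number as a block, all 10 genes were called, all 10 higher, in PA + C3G against PA, in place of 6, with adjusted p = 0.0152 for Cpe, 0.00513 for Scg2, 0.00872 for Ptprn and 0.0291 for Slc30a8 from edgeR. Between PA + C3G and PA each library correlated best with its own number, which is a hint from the data and not from the design. Over all tested genes the block gave 6843, 3118 and 5058 calls, against 6614, 2752 and 4783 without it, and without PA replicate 3 the middle count was 1718. Of the 10 genes, the count lower in PA + C3G than in BSA was 1 with no filter and 1 to 2 with a library left out. In the further list, the genes lower with PA + C3G than with PA numbered 15 in place of 7 under rescaling to equal FPKM sums, and those lower than with BSA numbered 5 in place of 3 under that rescaling and under limma with either pseudocount. The cause of these shifts was not tested. The log2 difference of Pcsk2/Scg5 between PA + C3G and BSA, 0.03, was −0.035 without PA + C3G replicate 1 and −0.010 without BSA replicate 2. The lowest count of the 10 genes in any library was 1711, and an effect of depth was not tested. The ratio tests were limited by 3 libraries a group.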

Other observations

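Libraries with the same replicate number often took the same rank for these genes. For 7 of the 10 genes the same replicate number was lowest in all 3 groups, and for 7 of the 10 the same number was highest. Replicate 2 was lowest in every group for Pcsk2, Cpe, Chgb and Ptprn, and highest in every group for Chga and Scg2. Pcsk1 and Scg5 showed neither pattern. This was seen in the values and was not tested, and no share over all tested genes is set beside it. Whether the pattern is particular to these genes is therefore not known.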
